A study of Mus musculus with 20 samples.

Results

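ISG15 and the enzymes that attach it to proteins and remove it again were followed through peripheral blood RNA as 5 genes, chosen by symbol: Isg15 itself, the E1 activating enzyme Uba7, the E2 conjugating enzyme Ube2l6, the E3 ligase Herc6 and the protease Usp18. All 5 were among the 9228 genes of the deposited expression table, and all 5 passed the filter on low values, which 8696 genes passed. Isg15, Herc6 and Usp18 were higher in Lyn-/- blood than in WT blood and lower again in the blood of mice that also lacked the type I IFN receptor gene Ifnar1. Uba7 and Ube2l6 passed the test in none of the 10 comparisons between genotypes.

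RNA was sequenced from the stabilized peripheral blood of female C57BL/6 mice aged 22 to 23 weeks, with 4 mice for each of 5 genotypes. The study asked how losing the IFN receptor compares with losing the transcription factor IRF5 in a mouse model of lupus. The groups were Lyn-/-Ifnar1-/- mice (no Lyn kinase and no IFNAR1), Lyn-/-Irf5-/- mice (no Lyn and no IRF5), Lyn-/-Irf5+/- mice (no Lyn and 1 remaining copy of Irf5), Lyn-/- mice and WT mice. All genotypes except WT lacked Lyn. The RNA came from whole blood that was not separated into cell types.

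ISG15 is a ubiquitin-like protein that cells make in response to type I IFN and couple to lysines of other proteins. UBA7 activates it, UBE2L6 carries it, and in mice HERC6 is the main ligase that hands it to its targets, a role that HERC5 has in humans. USP18 cleaves ISG15 from its targets and also sits on the receptor chain IFNAR2, where it damps the signal of type I IFN.

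The members lie on 4 chromosomes of GRCm38. Isg15 spans 156199424 to 156200818 on the minus strand of chromosome 4, Uba7 spans 107975505 to 107984060 of chromosome 9, and Ube2l6 spans 84798828 to 84810335 of chromosome 2. Herc6 (57581000 to 57664632) and Usp18 (121245906 to 121270917) share chromosome 6, and these 4 genes are all on the plus strand. In the GENCODE annotation no other gene overlaps Isg15 or Ube2l6. Uba7 overlaps the gene model Gm20661 on its own strand, Herc6 overlaps Gm45193 and the antisense Gm19244, and Usp18 overlaps the antisense Gm44148. Whether reads were counted by strand is not given in the sources used here, so reads of these overlapping models cannot be told apart from those of the members.

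The promoters are shown because the members differ in the motif through which IFN-activated factors reach DNA. Whether these motifs bear on the RNA differences between genotypes was not tested. RefSeq windows (GRCm38.p6) of 300 bases ran from 250 before to 50 after the start of transcription. They were at hand for 4 of the 5 members, with none for Usp18, and are printed in the direction of transcription. Capitals mark matches, on either strand, to the core of the IFN-stimulated response element (ISRE), GAAANNGAAA, or to the shorter core bound by IRFs, AANNGAAA, which lies within the longer ISRE core.
Isg15: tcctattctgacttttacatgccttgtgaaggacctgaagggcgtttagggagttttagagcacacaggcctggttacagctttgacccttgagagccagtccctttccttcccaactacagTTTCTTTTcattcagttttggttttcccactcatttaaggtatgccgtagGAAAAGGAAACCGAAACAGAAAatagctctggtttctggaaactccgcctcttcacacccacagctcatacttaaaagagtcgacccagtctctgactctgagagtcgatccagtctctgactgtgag
Uba7: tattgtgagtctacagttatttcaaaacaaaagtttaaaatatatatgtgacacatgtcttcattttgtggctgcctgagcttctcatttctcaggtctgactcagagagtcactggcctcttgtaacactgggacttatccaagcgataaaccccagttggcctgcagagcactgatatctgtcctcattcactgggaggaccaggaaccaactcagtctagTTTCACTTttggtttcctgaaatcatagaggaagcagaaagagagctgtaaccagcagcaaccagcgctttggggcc
Ube2l6: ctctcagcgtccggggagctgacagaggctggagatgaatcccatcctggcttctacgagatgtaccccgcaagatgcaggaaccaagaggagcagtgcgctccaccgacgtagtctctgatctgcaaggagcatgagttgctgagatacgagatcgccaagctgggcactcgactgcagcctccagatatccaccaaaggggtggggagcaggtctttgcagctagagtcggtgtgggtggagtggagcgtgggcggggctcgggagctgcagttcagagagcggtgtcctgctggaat
Herc6: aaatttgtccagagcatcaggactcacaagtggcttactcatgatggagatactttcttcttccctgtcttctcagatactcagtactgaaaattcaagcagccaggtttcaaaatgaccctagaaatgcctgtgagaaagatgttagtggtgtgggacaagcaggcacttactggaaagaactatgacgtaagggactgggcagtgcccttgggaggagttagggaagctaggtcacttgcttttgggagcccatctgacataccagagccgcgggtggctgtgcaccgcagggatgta
The Isg15 window (chr4:156200769-156201068) held 3 overlapping ISRE cores that began 78, 72 and 66 bases before the start, and 4 IRF cores, of which 1 stood apart at 128 bases before the start on the other strand. The Uba7 window (chr9:107975317-107975616) held no ISRE core and 1 IRF core on the other strand, 27 bases before the start. The windows of Ube2l6 (chr2:84798578-84798877) and Herc6 (chr6:57580742-57581041) held neither sequence. Of all 32851 such windows, 3.44% held an ISRE core and 23.9% an IRF core, and for the 8499 windows of genes tested here the shares were 3.48% and 18.9%. A match describes letters only, and binding was not measured.

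Reads recovered from the deposited values summed to between 939531 and 2172915 per library over 9219 genes. The median number of reads per gene ran from 11 to 52 and was lowest in Lyn-/-Ifnar1-/- mouse 3. Lyn was lower in each of the 4 genotypes lacking it than in WT (limma adjusted p = 1.38e-04 for Lyn-/-), at 2.42 to 13.8 RPKM against 32.4 to 36.9 RPKM. The whole-gene levels of Irf5 and Ifnar1 did not show these deletions. Irf5 averaged 38.2 ± 2.33 RPKM in mice labelled Lyn-/-Irf5-/-, against 20.9 ± 0.640 RPKM in WT mice (SD, n = 4 each, limma adjusted p = 0.00127). Ifnar1 averaged 8.501 ± 2.15 RPKM in mice labelled Lyn-/-Ifnar1-/-, against 5.75 ± 0.462 RPKM in WT mice (adjusted p = 0.0325). Where in these genes the reads lie was not examined, so both genotypes rest on the labels here and in every comparison that follows. Cell type markers also differed between the genotypes. In Lyn-/- against WT blood, 11 of 11 B cell markers were lower, while 9 of 10 markers of nonclassical monocytes, 10 of 12 of neutrophils and 8 of 13 of erythroid cells were higher. In bulk RNA, fewer cells of a type and less RNA per cell cannot be told apart.

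Isg15 was highest in Lyn-/- blood and lowest in Lyn-/-Ifnar1-/- blood. It stood at 14.8, 13.97, 204 and 63.5 RPKM (reads per kilobase of gene, scaled to the size of the library) in Lyn-/-Ifnar1-/- mice, at 313, 408, 429 and 507 RPKM in Lyn-/-Irf5-/- mice and at 376, 539.8, 555 and 556 RPKM in Lyn-/-Irf5+/- mice. It stood at 564, 1782, 1090.0 and 2292 RPKM in Lyn-/- mice, against 347, 280.1, 298 and 217 RPKM in WT mice. Every Lyn-/- mouse was above every mouse of any other genotype, and every Lyn-/-Ifnar1-/- mouse was below every other mouse. The mean was 74.1 ± 89.7 RPKM in Lyn-/-Ifnar1-/- blood, 414 ± 79.6 RPKM in Lyn-/-Irf5-/- blood, 507 ± 87.5 RPKM in Lyn-/-Irf5+/- blood and 1432 ± 759.9 RPKM in Lyn-/- blood, against 286 ± 53.6 RPKM in WT blood (SD, n = 4 each). Relative to the mean, the spread was widest in Lyn-/-Ifnar1-/- mice, where mouse 3 held 166 Isg15 reads and mice 1 and 2 held 32 and 43.

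Fold changes are differences of log2(RPKM + 0.5), which understates those of low genes, and they were tested by limma with Benjamini-Hochberg adjustment over the 8696 genes. Isg15 was higher in Lyn-/- than in WT blood (log2 fold change 2.16, SE 0.58, adjusted p = 0.00794). It fell in Lyn-/-Ifnar1-/- blood by 4.93 on the log2 scale against Lyn-/- (SE 0.58, adjusted p = 1.58e-05) and fell by 2.77 against WT (adjusted p = 0.00225). Against Lyn-/-, the log2 fold changes of -1.62 in Lyn-/-Irf5-/- and -1.33 in Lyn-/-Irf5+/- blood did not pass (adjusted p = 0.0698 and 0.131). Neither genotype overlapped Lyn-/-, but the share of all genes without overlap was not computed. Both differences passed with only the 2 genotypes compared in the model (adjusted p = 0.0116 and 0.0373) and with libraries scaled to the same RPKM sum (adjusted p = 0.0451 and 0.00206). Without Lyn-/- mouse 1, the lowest of its group, the difference of Lyn-/-Irf5-/- from Lyn-/- also passed (log2 fold change -2.01, adjusted p = 0.0299). Most alternatives did not pass. Lyn-/-Irf5-/- against Lyn-/- passed in 1 of 8 fits with a library left out (limma adjusted p up to 0.196) and in 3 of 11 other settings. Lyn-/-Irf5+/- against Lyn-/- passed in 0 of 8 (adjusted p up to 0.302) and 2 of 11.

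**Figure D1:**
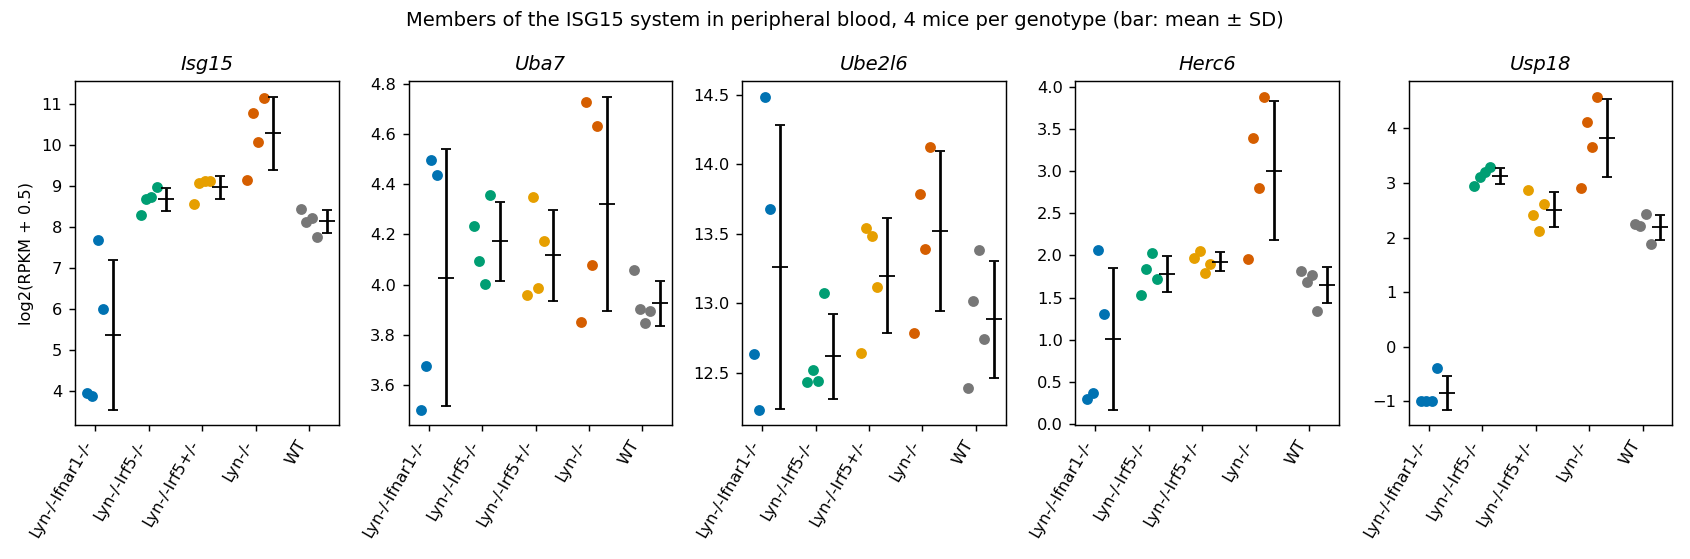
Levels of the 5 members as log2(RPKM + 0.5) on a separate vertical scale for each gene, with the 5 genotypes along the horizontal axis. Each point is 1 mouse and the black bar is the mean ± SD of 4 mice. For Isg15 all 4 Lyn-/-Ifnar1-/- mice lie below the other 16, and for Usp18 they held 0, 0, 0 and 1 reads, whereas the genotypes overlap for Uba7 and Ube2l6.

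Uba7, the activating enzyme, passed the test in no comparison. Its levels were 10.8, 12.3, 22.1 and 21.1 RPKM in Lyn-/-Ifnar1-/- mice, 18.3, 16.6, 15.5 and 20.0 RPKM in Lyn-/-Irf5-/- mice and 15.04, 19.9, 15.4 and 17.6 RPKM in Lyn-/-Irf5+/- mice. Lyn-/- mice had 13.9, 26.0, 16.4 and 24.3 RPKM, against 16.1, 14.5, 13.9 and 14.4 RPKM in WT mice. The genotypes overlapped in every comparison. The log2 fold change of Lyn-/- against WT was 0.40 (SE 0.22, adjusted p = 0.164), and that of Lyn-/-Ifnar1-/- against Lyn-/- was -0.30 (adjusted p = 0.445). The second of these became -0.73 and passed when Lyn-/-Ifnar1-/- mice 3 and 4 were left out together (adjusted p = 0.0218). Lyn-/-Ifnar1-/- against Lyn-/-Irf5-/-, at -0.14, became -0.81 and passed with libraries scaled to the same RPKM sum outside hemoglobin genes (adjusted p = 0.0234). The hemoglobin genes left out of that sum were Hbq1b, Hbq1a and Beta-s, so other erythroid RNA stayed in it.

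Ube2l6, the conjugating enzyme, was by far the most abundant member per length of transcript, and passed in no comparison either. It stood at 6358, 4817, 22968 and 13136 RPKM in Lyn-/-Ifnar1-/- mice, at 5537, 5867, 5567 and 8614 RPKM in Lyn-/-Irf5-/- mice and at 6400.2, 11937, 11443 and 8900.1 RPKM in Lyn-/-Irf5+/- mice. It stood at 7042, 14115, 10759 and 17826.5 RPKM in Lyn-/- mice, against 5374, 8269.7, 10683 and 6856 RPKM in WT mice. The 2 highest values of all 20 mice came from Lyn-/-Ifnar1-/- mouse 3 and Lyn-/- mouse 4, and the lowest from Lyn-/-Ifnar1-/- mouse 2. The log2 fold change was 0.64 for Lyn-/- against WT (SE 0.44, adjusted p = 0.270) and -0.26 for Lyn-/-Ifnar1-/- against Lyn-/- (SE 0.44, adjusted p = 0.767). With libraries scaled to the same RPKM sum, Lyn-/-Irf5+/- against Lyn-/- passed (log2 fold change -0.58, adjusted p = 0.00672). Of its 4 neighbouring steps in the order of mean log2 levels (Lyn-/-, Lyn-/-Ifnar1-/-, Lyn-/-Irf5+/-, WT, Lyn-/-Irf5-/-), 0 passed the test.

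Herc6, the ligase, was far less abundant per length than Isg15 and had 11 to 173 reads in a mouse. Its levels were 0.728, 0.791, 3.70 and 1.96 RPKM in Lyn-/-Ifnar1-/- mice, 2.38, 3.07, 3.58 and 2.81 RPKM in Lyn-/-Irf5-/- mice and 3.43, 3.65, 2.95 and 3.22 RPKM in Lyn-/-Irf5+/- mice. Lyn-/- mice had 3.39, 10.003, 6.47 and 14.3 RPKM, against 3.03, 2.70, 2.90 and 2.03 RPKM in WT mice. Lyn-/- lay above WT without overlap, and its log2 fold change was 1.36 (SE 0.35, adjusted p = 0.00569). Lyn-/-Ifnar1-/- mouse 3 reached into the range of Lyn-/-, but the group as a whole was lower than Lyn-/- (log2 fold change -2.002, SE 0.35, adjusted p = 0.00138), a call that was lost with only the 2 genotypes in the model (adjusted p = 0.0943). The difference of Lyn-/-Ifnar1-/- from WT did not pass (log2 fold change -0.64, adjusted p = 0.189), and passed without Lyn-/-Ifnar1-/- mouse 3 (log2 fold change -0.99, adjusted p = 0.0368). It also passed in 3 of 11 other settings, among them the same RPKM sum outside hemoglobin genes (log2 fold change -1.15, adjusted p = 0.00876).

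Herc6 was also lower in both Irf5 genotypes than in Lyn-/-. The log2 fold change was -1.23 in Lyn-/-Irf5-/- blood (SE 0.35, adjusted p = 0.0218) and -1.08 in Lyn-/-Irf5+/- blood (SE 0.35, adjusted p = 0.0421). The first was lost without Lyn-/- mouse 2, Lyn-/- mouse 4 or Lyn-/-Irf5-/- mouse 1 (adjusted p = 0.0726, 0.0941 and 0.0691). It was also lost with libraries scaled to the same RPKM sum (log2 fold change -0.74, adjusted p = 0.160) or to the same sum outside hemoglobin genes (-0.60, adjusted p = 0.0775), where Isg15 passed in its place (adjusted p = 0.0451 and 0.0381). The second call was lost without any single library of the 2 genotypes other than Lyn-/- mouse 1 (adjusted p up to 0.149), without which it was kept (adjusted p = 0.00687). Several cell type markers moved in these comparisons. Against Lyn-/-, markers of nonclassical monocytes were lower in 10 of 10 in both Irf5 genotypes, and erythroid markers in 10 of 13 in Lyn-/-Irf5-/- and 7 of 13 in Lyn-/-Irf5+/- blood. B cell markers were higher in 9 and 10 of 11 and T cell markers in 8 and 6 of 12 in the same comparisons. The part of these cells in the result was not tested.

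Usp18, the deconjugating protease and brake on the receptor, had 1 read in all Lyn-/-Ifnar1-/- mice together. It was listed at 0, 0, 0 and 0.266 RPKM in Lyn-/-Ifnar1-/- mice, which is 0, 0, 0 and 1 reads, at 7.22, 8.08, 8.64 and 9.24 RPKM in Lyn-/-Irf5-/- mice and at 6.86, 4.79, 3.87 and 5.64 RPKM in Lyn-/-Irf5+/- mice. Lyn-/- mice had 7.001, 16.9, 12.1 and 23.4 RPKM, against 4.26, 4.11, 4.88 and 3.17 RPKM in WT mice. A count of 0 allows up to 3 reads, which is 0.592, 0.416 and 1.57 RPKM in Lyn-/-Ifnar1-/- mice 1, 2 and 3, all below the lowest WT mouse. Pooled over 4 mice, Usp18 had 1 read in Lyn-/-Ifnar1-/- blood and 270 in Lyn-/- blood, a rate ratio of 0.00405 (95% exact Clopper-Pearson interval 1.02e-04 to 0.0228). Against 106 reads in WT the ratio was 0.0137 (3.43e-04 to 0.0778), and these intervals cover counting error only.

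In the limma test Usp18 was lower in Lyn-/-Ifnar1-/- blood than in Lyn-/- (log2 fold change -4.66, SE 0.26, adjusted p = 1.65e-10) and than in WT (-3.04, adjusted p = 1.50e-07). The size of both depends on the pseudocount, since the gene was close to 0 there, and ran from -6.62 to -3.79 and from -4.91 to -2.26 with pseudocounts of 0.1 and 1. Usp18 was higher in Lyn-/- than in WT (log2 fold change 1.63, SE 0.26, adjusted p = 8.06e-05). It was lower in Lyn-/-Irf5+/- than in Lyn-/- blood (-1.31, SE 0.26, adjusted p = 0.00273), while Lyn-/-Irf5-/- differed from Lyn-/- by -0.68 without passing (adjusted p = 0.0873). Without Lyn-/- mouse 1 that difference was -0.99 and passed (adjusted p = 0.00549). Usp18 was the member that passed as higher than WT in Lyn-/-Irf5-/- blood (log2 fold change 0.94, SE 0.26, adjusted p = 0.0211), without overlap, although the call was lost without WT mouse 4, Lyn-/-Irf5-/- mouse 3 or Lyn-/-Irf5-/- mouse 4 (adjusted p = 0.0811, 0.0583 and 0.0671) and with a pseudocount of 0.1 (adjusted p = 0.0947).

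With Lyn-/- set against WT, 3 of the 5 members were higher and 0 lower, where 17.1% of all genes tested were higher and 15.5% lower. The median log2 fold change of the members was 1.36, against -0.03 over all genes. In Lyn-/-Ifnar1-/- against Lyn-/- blood 0 members were higher and 3 lower, beside 2.74% and 3.96% of all genes, with a median of -2.002 over the members and 0.02 over all genes. In Lyn-/-Irf5-/- against Lyn-/- blood 0 were higher and 1 lower (5.36% and 8.58% of all genes). In Lyn-/-Irf5+/- against Lyn-/- blood 0 were higher and 2 lower (6.12% and 8.46%). These comparisons share the 4 Lyn-/- libraries.

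Set against WT, 0 members were higher and 2, Isg15 and Usp18, lower in Lyn-/-Ifnar1-/- blood (11.7% and 9.61% of all genes). Cell type markers moved there too, with 11 of 11 of B cells and 4 of 5 of plasmacytoid dendritic cells lower. Higher were 9 of 10 of nonclassical monocytes, 8 of 9 of platelets and 1 of 13 of erythroid cells. The part of these cells in the result was not tested. In Lyn-/-Irf5-/- blood Usp18 passed as higher and 0 were lower (7.00% and 3.70%). Isg15 passed there with only these genotypes in the model (log2 fold change 0.53, adjusted p = 0.0322) and in no other setting. In Lyn-/-Irf5+/- blood 0 were higher and 0 lower (4.98% and 5.49%). For these last comparisons, 1937 and 2135 of the 8696 genes had an unadjusted p under 0.05, and limma-voom on recovered reads called 1231 and 964 genes. Isg15 did not overlap between Lyn-/-Irf5+/- and WT mice. It passed there with only these genotypes in the model (log2 fold change 0.83, adjusted p = 0.00913) and in no other setting.

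Isg15 and Usp18 were also lower in Lyn-/-Ifnar1-/- blood than in either Irf5 genotype. Against Lyn-/-Irf5-/- the log2 fold changes were -3.31 for Isg15 (adjusted p = 0.00224) and -3.98 for Usp18 (adjusted p = 2.19e-09), with 0 members higher and 2 lower, beside 1.95% and 2.06% of all genes. Against Lyn-/-Irf5+/- they were -3.60 (adjusted p = 0.00122) and -3.35 (adjusted p = 5.06e-08), again with 0 higher and 2 lower, beside 2.13% and 2.41% of all genes. Herc6 differed by -0.77 and -0.92 in these comparisons without passing. It passed against both Irf5 genotypes with Lyn-/-Ifnar1-/- mice 3 and 4 left out (adjusted p = 0.0369 for Lyn-/-Irf5-/- and 0.0178 for Lyn-/-Irf5+/-), by limma-voom (0.0497 and 0.0402) and with the same sum outside hemoglobin (0.00343 and 0.0284). It also passed against Lyn-/-Irf5-/- with the same RPKM sum (0.0192) and against Lyn-/-Irf5+/- without mouse 3 alone (0.0388). With only the 2 genotypes compared in the model, the calls of Isg15 were lost (adjusted p = 0.0987 and 0.0805). Between Lyn-/-Irf5-/- and Lyn-/-Irf5+/- blood 0 members passed, as did 0% of all genes in either direction. There, 714 genes had an unadjusted p under 0.05, and limma-voom called 0. Usp18 stood at 7.22 to 9.24 RPKM in Lyn-/-Irf5-/- and 3.87 to 6.86 RPKM in Lyn-/-Irf5+/- mice (log2 fold change 0.62, adjusted p = 0.565).

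The shares of all genes printed beside the members depend on how libraries are scaled. In Lyn-/- against WT, 1483 genes were higher and 1346 lower as deposited, against 513 and 2499 once libraries shared 1 RPKM sum outside hemoglobin. In Lyn-/-Ifnar1-/- against Lyn-/- they were 238 and 344 as deposited, 3 and 117 with the same RPKM sum and 38 and 108 with the same sum outside hemoglobin. Against Lyn-/-, in the same order, Lyn-/-Irf5-/- had 466 and 746, 360 and 258, and 2874 and 343 genes, and Lyn-/-Irf5+/- had 532 and 736, 13 and 429, and 335 and 249. More genes were lower than higher as deposited in both of these comparisons, and more were higher than lower outside hemoglobin. Against WT, Lyn-/-Ifnar1-/- had 1014 and 836, 29 and 203, and 90 and 1030 genes, Lyn-/-Irf5-/- had 609 and 322, 331 and 45, and 320 and 103, and Lyn-/-Irf5+/- had 433 and 477, 7 and 106, and 58 and 144. Lyn-/-Ifnar1-/- had 170 and 179, 28 and 178, and 134 and 759 against Lyn-/-Irf5-/-, and 185 and 210, 44 and 24, and 26 and 68 against Lyn-/-Irf5+/-.

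**Figure D2:**
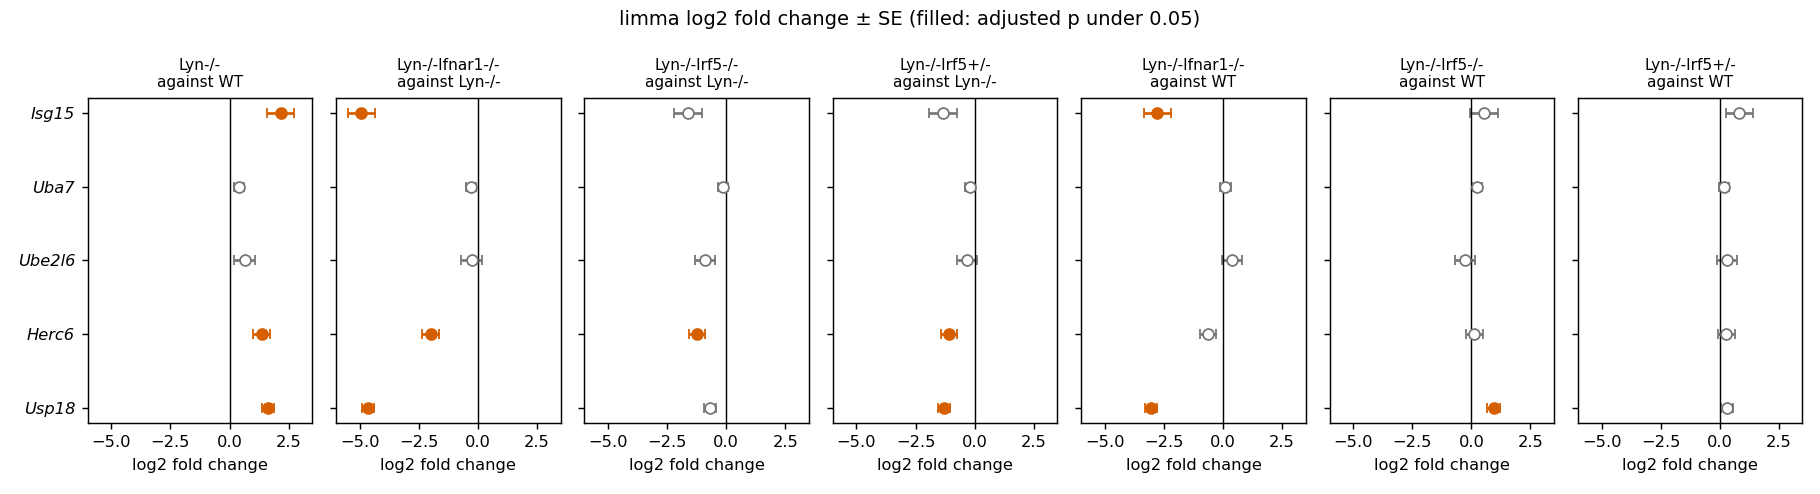
limma log2 fold changes of the 5 members in 7 comparisons, 1 panel each, with horizontal bars for the SE and a line at 0 (no difference). Filled points have an adjusted p under 0.05. Isg15, Herc6 and Usp18 lie right of 0 in Lyn-/- against WT and left of 0 in Lyn-/-Ifnar1-/- against Lyn-/-, while Uba7 and Ube2l6 are open points in every panel.

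Each enzyme gene was also set against Isg15 in the same mouse, a ratio that does not depend on how libraries are scaled apart from the pseudocount. Relative to Isg15, Ube2l6 stood at a log2 ratio of 8.70, 8.38, 6.81 and 7.68 in Lyn-/-Ifnar1-/- mice and at 3.64, 2.99, 3.30 and 2.96 in Lyn-/- mice, against 3.95, 4.88, 5.16 and 4.98 in WT mice. The mean ratio of Ube2l6 was 4.67 higher in Lyn-/-Ifnar1-/- than in Lyn-/- blood and differed by -1.52 in Lyn-/- against WT blood. Uba7 shifted by 4.64 and -1.76 and Herc6 by 2.93 and -0.80 in the same comparisons. The ratio of Herc6 varied little among Lyn-/- mice, from -7.41 to -7.18, although Isg15 itself spanned 564 to 2292 RPKM there.

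Over the 4 enzyme genes and 10 comparisons, 24 of 40 ratios had the smallest p that 4 mice against 4 allow in an exact two-sided permutation test (p = 0.0286, Benjamini-Hochberg adjusted p = 0.0476). These were all the ratios without overlap between the genotypes. Isg15 is the denominator of all 40 ratios, so a difference in Isg15 enters the ratios of all 4 enzyme genes. Uba7 and Ube2l6 by themselves passed in no comparison. The adjusted p rests on how many ratios shared the smallest p, and ratios of other genes to Isg15 were not computed. Uba7 and Ube2l6 were higher per Isg15 in Lyn-/-Irf5-/- and Lyn-/-Irf5+/- than in Lyn-/- blood (differences of 1.47 and 1.13 for Uba7, and of 0.72 and 1.01 for Ube2l6). Usp18 rose against Isg15 in Lyn-/-Irf5-/- blood, by 0.94 beside Lyn-/- and by 0.41 beside WT. In Lyn-/-Ifnar1-/- blood the Usp18 ratio differed by 0.27 from Lyn-/- and by -0.26 from WT without passing (exact permutation test, adjusted p = 0.914 each). Those 2 values depend on the pseudocount, and with 0.1 in place of 0.5 they were -1.67 and -2.12 (exact permutation test, adjusted p = 0.0423 each).

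**Figure D3:**
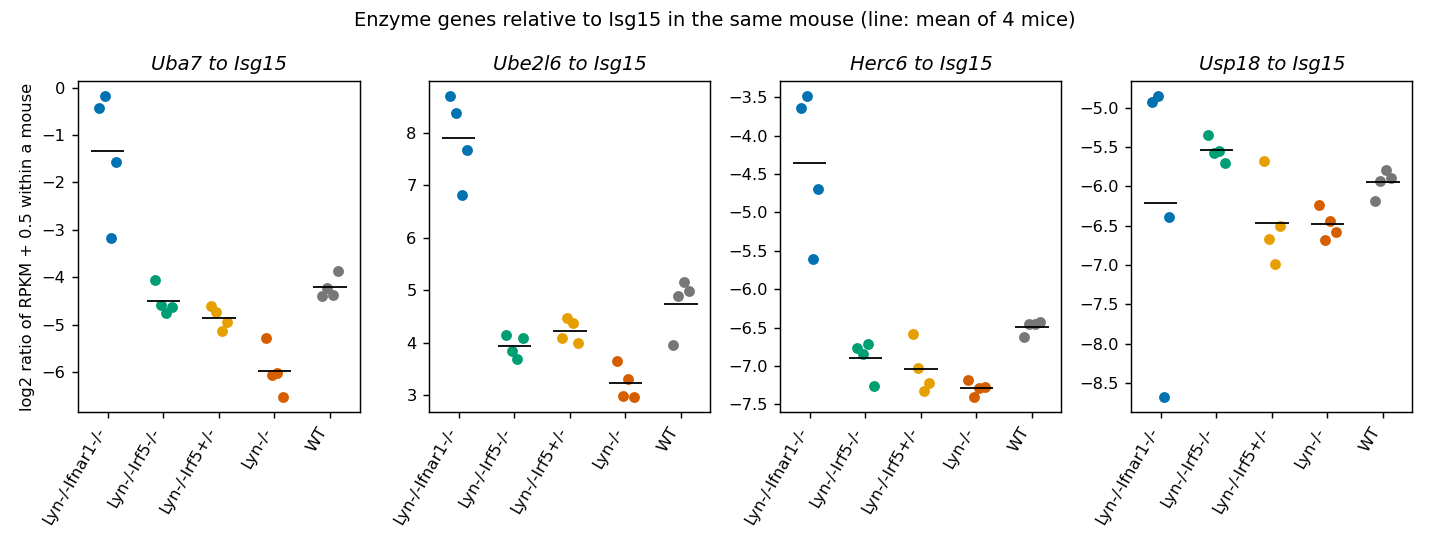
log2 ratio of each enzyme gene to Isg15 within a mouse, with a pseudocount of 0.5 RPKM, by genotype. Each point is 1 mouse, the line is the mean of 4 mice, and each gene has its own vertical scale. The Lyn-/-Ifnar1-/- mice lie highest for Uba7, Ube2l6 and Herc6, and the mean of Lyn-/- mice is the lowest for these 3 genes.

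The genes whose log2 levels ran most like a member over the 20 libraries differed between the members, as measured by Pearson's r, which also reflects library and genotype differences that all genes share. Those nearest Isg15 were Oas3 (r = 0.94), Ifit1 (0.94), Ifi27l1 (0.92), Irf7 (0.92) and Oasl2 (0.91), all of them IFN-stimulated genes (ISGs) or, for Ifi27l1, a relative of one. Those nearest Usp18 were Ifit1 (0.98), Irf7 (0.98), Xaf1 (0.98), Oas1a (0.96) and Ifi27l1 (0.95). Herc6 ran closest to Rnf114 (0.95), Rsad2 (0.94), Vcpip1 (0.91), Isg15 (0.91) and Oas3 (0.89). Among those nearest Ube2l6 were Sh3glb1 (0.98), Adipor1 (0.98), March2 (0.98) and Gabarapl2 (0.98). Uba7 ran closest to H2-T24 (0.87), St7 (0.84), Psmd11 (0.84), H2-T23 (0.83) and Tmem86b (0.81). Among the members, Isg15 ran with Herc6 (0.91) and Usp18 (0.89) more closely than with Uba7 (0.60) and Ube2l6 (0.39), and Ube2l6 and Usp18 had an r of 0.02.

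Within the genotypes, Isg15 and Ube2l6 varied together with erythroid markers. The mean log2 level of 13 listed erythroid markers (of 15 sought), none of them at 0, was 7.83, 7.65, 10.2 and 9.23 in Lyn-/-Ifnar1-/- mice, 6.84 to 7.51 in Lyn-/-Irf5-/- mice and 7.69 to 8.02 in Lyn-/-Irf5+/- mice. It was 8.57, 9.51, 9.04 and 9.92 in Lyn-/- mice, against 7.62 to 8.24 in WT mice. After the mean of each genotype was subtracted, Pearson's r with this level over 20 libraries was 0.97 for Isg15, 0.95 for Ube2l6, 0.89 for Herc6, 0.82 for Uba7 and 0.45 for Usp18. Without the 2 libraries farthest from the median it was 0.92, 0.91, 0.84, 0.79 and 0.72. These values describe 20 mice that share the scaling of their libraries. Platelet markers also ran with the members, at 0.81 for Isg15, 0.84 for Ube2l6, 0.76 for Herc6, 0.87 for Uba7 and 0.57 for Usp18. Without the 2 libraries farthest from the platelet median these were 0.84, 0.90, 0.80, 0.83 and 0.52. Leukocyte markers ran the other way for Isg15, at -0.65 for nonclassical and -0.41 for classical monocytes, -0.60 for neutrophils and -0.54 for B cells. It had -0.41 with T cell, -0.39 with NK cell and -0.67 with plasmacytoid dendritic cell markers. Without the 2 farthest libraries these spanned -0.79 (nonclassical monocytes) to -0.08 (B cells). Genes other than the members were not set against these levels.

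Lyn-/-Ifnar1-/- mouse 3 had the highest erythroid level of all 20 mice (10.2) and 204 RPKM of Isg15, against a level of 7.64 and 217 RPKM in WT mouse 4, the WT mouse lowest in Isg15. Of the erythroid markers, 0 of 13 passed in Lyn-/-Ifnar1-/- against Lyn-/- blood, whereas 8 of 10 markers of nonclassical monocytes were lower and 6 of 11 B cell markers and 6 of 12 T cell markers higher, and the part of these cells in the result was not tested.

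**Figure D4:**
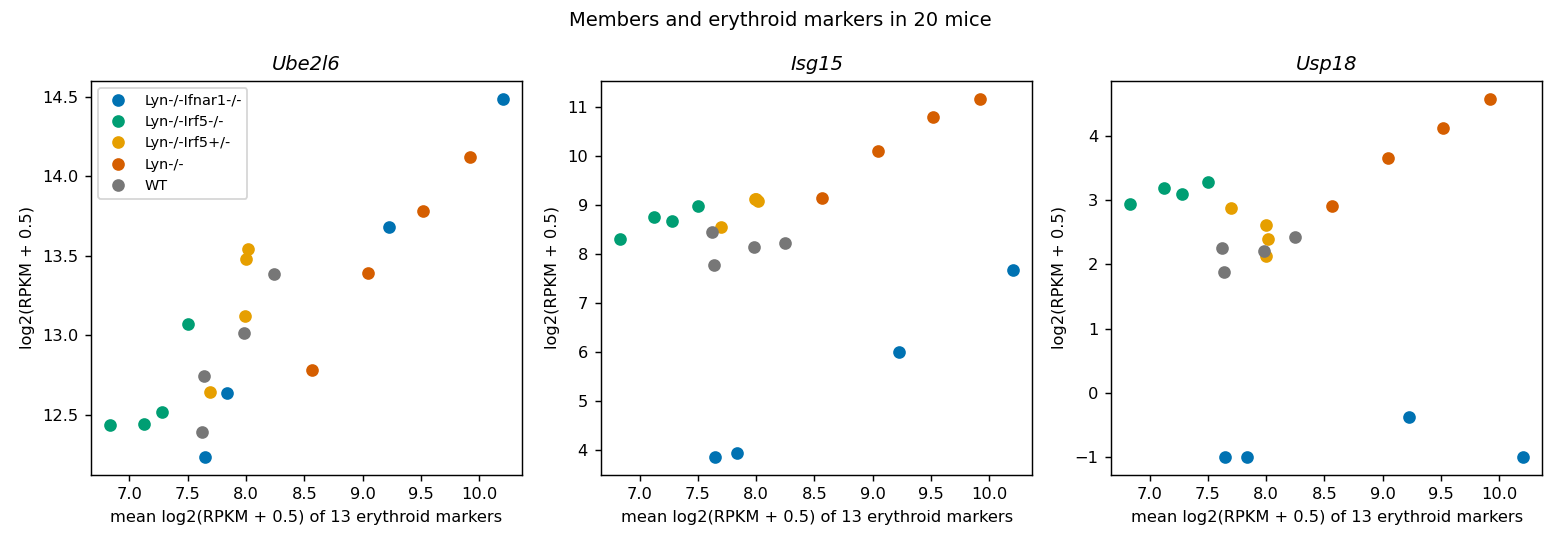
log2(RPKM + 0.5) of Ube2l6, Isg15 and Usp18 in each of 20 mice against the mean log2 level of 13 erythroid markers in the same mouse, coloured by genotype. Ube2l6 rises along 1 band for all genotypes, whereas Isg15 and Usp18 of the 4 Lyn-/-Ifnar1-/- mice lie below the other 16 mice.

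Genes around the pathway were read from lists that hold the factors upstream of the members, other ISGs, targets of ISG15 and sister systems. Of 8 genes for transcription factors of the IFN response, 3 were higher and 1 lower with Lyn-/- set against WT, and 0 were higher and 5 lower with Lyn-/-Ifnar1-/- set against Lyn-/-. Irf7, which amplifies the IFN response, averaged 669 ± 309 RPKM in Lyn-/- blood, against 179 ± 25.8 RPKM in WT blood (n = 4 each, ± SD), with a log2 fold change of 1.76 (limma adjusted p = 6.78e-05). Irf7 averaged 7.40 ± 1.74 RPKM in Lyn-/-Ifnar1-/- mice (log2 fold change -6.29 against Lyn-/-, adjusted p = 7.18e-12). Irf9, the DNA-binding part of the ISGF3 complex, averaged 11.7 ± 0.746 RPKM in Lyn-/- blood, against 11.7 ± 1.13 RPKM in WT blood, and was lower in Lyn-/-Ifnar1-/- mice at 5.79 ± 1.51 RPKM (log2 fold change -0.98 against Lyn-/-, adjusted p = 5.99e-04).

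A list of other type I ISGs held 67 tested genes. In Lyn-/- against WT blood 29 were higher and 5 lower, with a median log2 fold change of 0.50, and in Lyn-/-Ifnar1-/- against Lyn-/- blood 0 were higher and 50 lower, with a median of -1.05. Ifit1, which binds foreign RNA and is itself a target of ISG15, averaged 1.59 ± 0.770 RPKM in Lyn-/-Ifnar1-/- and 47.8 ± 20.4 RPKM in Lyn-/- mice (log2 fold change -4.49, adjusted p = 2.40e-09), and 14.7 ± 1.93 RPKM in WT mice. Of 14 genes for reported ISG15 targets, 4 were higher and 1 lower in Lyn-/- against WT, and 1 was higher and 6 lower in Lyn-/-Ifnar1-/- against Lyn-/-. Among these, Mx1, an antiviral GTPase, averaged 0.444 ± 0.190 RPKM in Lyn-/-Ifnar1-/- and 2.40 ± 1.18 RPKM in Lyn-/- mice (log2 fold change -1.56, adjusted p = 0.00152). Eif2ak2, the RNA-activated kinase PKR, averaged 0.493 ± 0.340 RPKM in Lyn-/-Ifnar1-/- and 2.07 ± 0.401 RPKM in Lyn-/- mice (log2 fold change -1.43, adjusted p = 6.13e-04).

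Among 10 genes that act with ISG15 in other ways, 3 were higher and 1 lower with Lyn-/- set against WT, and 0 were higher and 3 lower with Lyn-/-Ifnar1-/- set against Lyn-/-. Itgal and Itgb2 encode the chains of LFA-1, the receptor for secreted ISG15. Itgal averaged 46.6 ± 3.68 RPKM in Lyn-/- blood, against 21.8 ± 2.82 RPKM in WT blood (log2 fold change 1.09, adjusted p = 2.21e-05), and Itgb2 averaged 130.4 ± 7.21 RPKM in Lyn-/- blood, against 58.8 ± 5.14 RPKM in WT blood (log2 fold change 1.14, adjusted p = 3.91e-06). Neither passed in Lyn-/-Ifnar1-/- against Lyn-/- (adjusted p = 0.104 and 0.546). Ifnar2, the receptor chain that binds USP18, averaged 15.4 ± 4.70 RPKM in Lyn-/-Ifnar1-/- and 26.2 ± 0.380 RPKM in Lyn-/- mice, against 12.3 ± 1.92 RPKM in WT mice, and passed in both comparisons (adjusted p = 0.00667 and, for Lyn-/- against WT, 5.07e-05). Trim25, a ligase that ISG15 modifies, was lower in Lyn-/-Ifnar1-/- blood at 1.83 ± 0.917 RPKM, against 5.72 ± 0.511 RPKM in Lyn-/- blood (log2 fold change -1.53, adjusted p = 6.13e-04).

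Sister systems and paralogs were read in the same way. Of 20 genes of the ubiquitin, NEDD8, SUMO and UFM1 systems, 2 were higher and 1 lower with Lyn-/- set against WT, and 0 passed in Lyn-/-Ifnar1-/- against Lyn-/-. Ube2l3, the paralog of Ube2l6 that serves ubiquitin, averaged 13.2 ± 3.2 RPKM in Lyn-/-Ifnar1-/- and 13.4 ± 1.20 RPKM in Lyn-/- mice, against 9.73 ± 0.903 RPKM in WT mice (adjusted p = 0.0449 for Lyn-/- against WT). Ube2f, which carries NEDD8, averaged 195 ± 79.4 RPKM in Lyn-/- blood, against 62.9 ± 6.21 RPKM in WT blood (log2 fold change 1.53, adjusted p = 0.00621). Of 4 other HERC genes Herc3 was lower in Lyn-/-, at 1.27 ± 0.255 RPKM in Lyn-/- blood, against 2.06 ± 0.195 RPKM in WT blood (adjusted p = 0.0112), and 0 passed in Lyn-/-Ifnar1-/- against Lyn-/-. Of 32 other USP proteases, 6 were higher and 9 lower with Lyn-/- set against WT. Usp25 averaged 71.8 ± 32.02 RPKM in Lyn-/- blood, against 26.5 ± 5.19 RPKM in WT blood (adjusted p = 0.0129), and 0 of the 32 passed in Lyn-/-Ifnar1-/- against Lyn-/-. The lists differ in size and share some genes, and the difference between them was not tested.

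**Figure D5:**
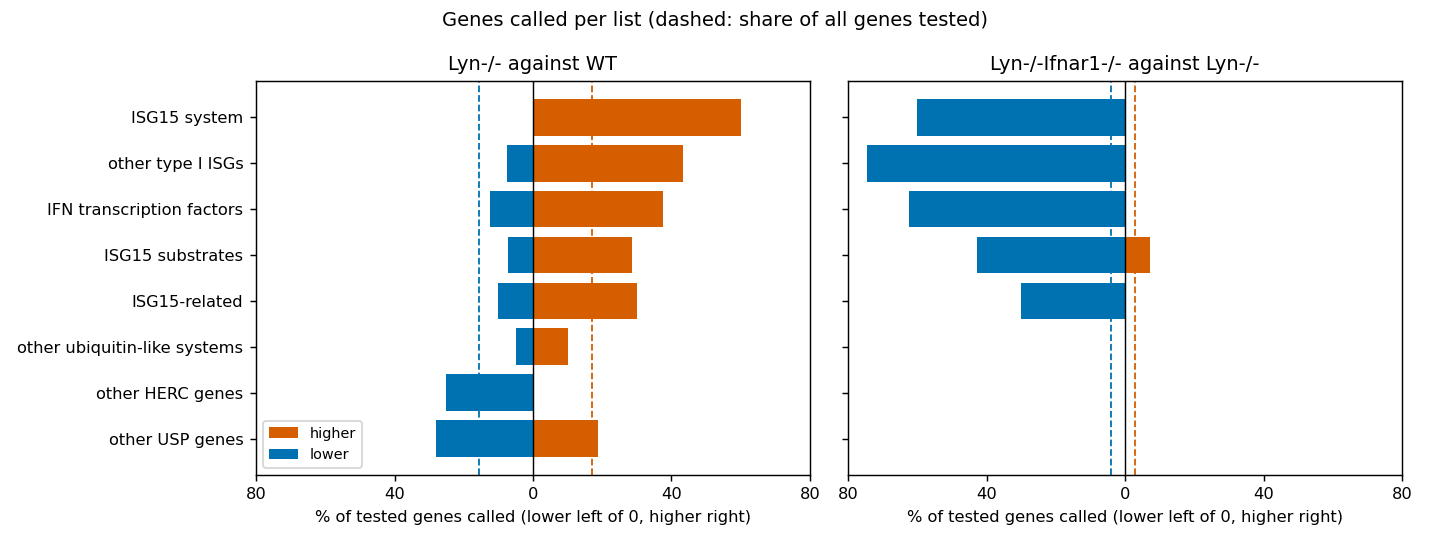
Percent of the tested genes of each list that were higher (right of 0) or lower (left of 0) at an adjusted p under 0.05, in Lyn-/- against WT and in Lyn-/-Ifnar1-/- against Lyn-/-, with dashed lines for the share of all genes tested. In the second comparison the ISG15 system (3 of 5 lower) stands beside the other type I ISGs (50 of 67 lower), and 0 genes of the other ubiquitin-like systems, HERC or USP lists passed. Only 2.74% of all genes tested were higher and 3.96% lower there, so a list of few genes may hold 0 called without standing apart.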

How the data were processed

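Peripheral blood RNA of 20 mice was made into libraries with a strand-specific kit and sequenced on an Illumina NextSeq system. The authors mapped reads to mm10 with STAR, counted them with featureCounts and used edgeR to scale the libraries (TMM) and compute RPKM, the only unit of the deposited table. It lists 9228 genes, and the filter that chose them is not given in the sources used here. Genotypes came from the labels, with 4 libraries each, taken here as separate mice. By their sample numbers, the 4 Lyn-/-Irf5+/- libraries were registered apart from the rest, and mice 2 and 3 among them had the fewest reads recovered (1011021 and 939531). Whether they were also prepared or sequenced apart is not given in the sources used here. Such a difference could not be told apart from genotype in their comparisons. A figure legend of the study gives 4 mice for each genotype, whereas its methods name a larger number per strain for RNA preparation. Why these numbers differ is not given in the sources used here.

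Genes reaching 1 RPKM in 4 or more libraries (8696) were compared as log2(RPKM + 0.5) by limma 3.58.1 (R 4.3.3; 1 model of all 20 libraries, genotype as its term, variance trend on), and each of 10 comparisons had its own Benjamini-Hochberg adjustment, called under 0.05. Whole reads were recovered from the steps between low RPKM values for 9219 genes (99.9%, within 0.05 reads of a whole number). No libraries were identical, and those of 1 genotype correlated at r = 0.913 to 0.984. Ratios were tested by exact permutation (two-sided, 40 tests). Overlap between genotypes was described for the members only, and the share of all genes without overlap was not computed. Python 3.11.15, pandas 2.3.3, numpy 2.4.6, scipy 1.17.1 and matplotlib 3.10.9 made the tables and plots. Read recovery and the limma step were tested on simulated data.

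Members and lists were chosen with earlier results of these data known. Named genes are the members, the targeted genes, the 5 genes most like each member (unnamed gene models left out) and, from each list, up to 4 genes with the smallest p in Lyn-/- against WT and in Lyn-/-Ifnar1-/- against Lyn-/-, of which a part is printed and some are not reported here. Alternatives changed the pseudocount, filter, scaling, variance trend and libraries in the model, added a replicate block, left out each library or Lyn-/-Ifnar1-/- mice 3 and 4 together, or used limma-voom on recovered reads.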

Additional observations from a re-analysis of the deposited data

Results flagged for a closer look

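The 5 members in 5 genotypes give 25 groups of 4 mice. By Dixon's criterion 2 of them held a mouse far from the others, where chance gives about 1 in 20 groups, and a further group met it only through ties at 0. Isg15 stood at 376 RPKM in 1 Lyn-/-Irf5+/- mouse, below the other 3 at 539.8 to 556 RPKM. Ube2l6 stood at 8614 RPKM in 1 Lyn-/-Irf5-/- mouse, above the other 3 at 5537 to 5867 RPKM. Usp18 stood at 0.266 RPKM, which is 1 read, in 1 Lyn-/-Ifnar1-/- mouse, and at 0 in the other 3, and with 3 values tied any other value meets the criterion.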

How the results depend on the processing

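In Lyn-/- against WT and in Lyn-/-Ifnar1-/- against Lyn-/-, 3 members passed without any single library, and Isg15 and Usp18 passed in all settings run. Over the settings other than leaving out a single library, the count ran from 2 to 3 in the first comparison and from 2 to 4 in the second. In the second, Herc6 was lost with only the 2 genotypes in the model (limma adjusted p = 0.0943). Uba7 was gained there without Lyn-/-Ifnar1-/- mice 3 and 4 (adjusted p = 0.0218). Counts of members called also moved elsewhere, and the causes were not tested. In Lyn-/-Irf5-/- against Lyn-/- (1 called) the count was 0 with a filter of at least 5 RPKM, which removes Herc6, 2 with only the 2 genotypes in the model, and 0 to 3 with a library left out (3 without Lyn-/- mouse 1, and 0 without Lyn-/- mouse 2, Lyn-/- mouse 4 or Lyn-/-Irf5-/- mouse 1). It stayed at 1 under both scalings to the same RPKM sum, where Isg15 replaced Herc6. In Lyn-/-Irf5+/- against Lyn-/- (2 called) it was 1 with a pseudocount of 0.1, that filter or the same RPKM sum outside hemoglobin genes, 4 with the same RPKM sum, and 1 to 2 with a library left out (2 only without Lyn-/- mouse 1). In Lyn-/-Irf5-/- against WT (1 called) it was 0 with a pseudocount of 0.1, 2 with only the 2 genotypes and 0 to 1 with a library left out. With only the 2 genotypes it was 1 in Lyn-/-Irf5+/- against WT (0 called) and 1 in Lyn-/-Ifnar1-/- against either Irf5 genotype (2 called), and it was 4 in Lyn-/-Ifnar1-/- against Lyn-/-Irf5-/- with the same sum outside hemoglobin. The Usp18 to Isg15 ratio turned its sign with a pseudocount of 0.1, to -1.67 in Lyn-/-Ifnar1-/- against Lyn-/- and to -1.63 against Lyn-/-Irf5+/-.

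The numbers of the mice did not pair them (r = -0.24 to 0.50 for equal numbers), and with a replicate block the counts of members called were 3 in Lyn-/- against WT, 3 in Lyn-/-Ifnar1-/- against Lyn-/- and equal to the main count in the other 8 comparisons. Scaling to the same RPKM sum moved the median of all genes to -0.25 in Lyn-/- against WT and -0.14 in Lyn-/-Ifnar1-/- against Lyn-/-, and genes called fell to 849 of all genes beside 2829 and to 120 beside 582. Relative to those medians, Isg15 changed by 2.16 and -5.01. In the other 8 comparisons this scaling gave 618 beside 1212 (Lyn-/-Irf5-/-) and 442 beside 1268 (Lyn-/-Irf5+/-) against Lyn-/-, 232 beside 1850 for Lyn-/-Ifnar1-/-, 376 beside 931 for Lyn-/-Irf5-/- and 113 beside 910 for Lyn-/-Irf5+/- against WT, 206 beside 349 and 68 beside 395 for Lyn-/-Ifnar1-/- against the Irf5 genotypes, and 3 beside 0 between those (121 with only these 2 genotypes). With the same sum outside hemoglobin, 3012 genes were called in Lyn-/- against WT, 146 in Lyn-/-Ifnar1-/- against Lyn-/- and 3217 and 584 in Lyn-/-Irf5-/- and Lyn-/-Irf5+/- against Lyn-/-. Against WT it called 1120 for Lyn-/-Ifnar1-/-, 423 for Lyn-/-Irf5-/- and 202 for Lyn-/-Irf5+/-, and for Lyn-/-Ifnar1-/- it called 893 against Lyn-/-Irf5-/- and 94 against Lyn-/-Irf5+/-. Medians of all genes moved to -0.54 in Lyn-/- against WT and to 0.65 in Lyn-/-Irf5-/- against Lyn-/-. A filter of at least 5 RPKM called 1757 genes in Lyn-/- against WT. With only the 2 genotypes, 82 were called in Lyn-/-Ifnar1-/- against Lyn-/-, 900 in Lyn-/-Ifnar1-/- and 2058 in Lyn-/-Irf5-/- against WT, and 72 and 28 in Lyn-/-Ifnar1-/- against Lyn-/-Irf5-/- and Lyn-/-Irf5+/-. Without Lyn-/-Ifnar1-/- mice 3 and 4, its counts were 1045 against Lyn-/-, 902 against WT, 83 against Lyn-/-Irf5-/- and 85 against Lyn-/-Irf5+/-. With 11 to 52 median reads per gene, Herc6 and Usp18 rest on few reads.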
